A study of Homo sapiens with 12 samples.

Results

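The set examined here holds 56 human genes of rRNA processing and nucleolar ribosome assembly on a list of symbols, which was drawn up with earlier results of these data known. Each gene was followed by its brightest probe. Of the 56 genes, 52 had a probe named in the annotation used, and 51 passed the filter on detection and were tested, out of 12760 genes tested in all. Ribosome assembly begins in the nucleolus, where a long precursor rRNA is copied from the ribosomal DNA, cut, trimmed and chemically modified while ribosomal proteins bind to it. A large number of helper proteins that are not part of the finished ribosome guide this work, among them the processome that builds the small subunit, the particles that mature the large subunit, and the snoRNPs that methylate or pseudouridylate the rRNA. Growing cancer cells make many ribosomes, and the genes of these factors are widely described as transcriptional targets of MYC. WDR43, GNL3, EBNA1BP2 and DDX18 had no probe named in the annotation, and the single probe named for NPM1, the nucleolar phosphoprotein nucleophosmin, was detected on 0 of 12 arrays. That probe alone does not show that NPM1 was not expressed. The 56 genes lie on 20 chromosomes, with at most 8 on any of them.

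The study asked how cancer cells that depend on the MET receptor respond when it is blocked. SNU-5 and MKN45, a pair of established gastric cancer lines that carry extra copies of MET, were grown with or without 1 µM crizotinib, a small molecule inhibitor of the MET kinase, for 24 h, and total RNA was hybridised to Illumina Human HT-12 v4 BeadChips. There were 3 arrays in each of 4 groups, namely untreated SNU-5, SNU-5 with crizotinib, untreated MKN45 and MKN45 with crizotinib. SNU-5 was kept in Iscove's medium and MKN45 in RPMI-1640, so a difference between lines and a difference between media cannot be told apart. The replicates are not said to be separate cultures, and the p-values therefore cover only the variation among the arrays at hand, which may be technical. Values below are log2 signals after background correction and quantile normalization, a change is the mean with crizotinib minus the mean of the controls of the same line, SE is its standard error, and adjusted p is the Benjamini-Hochberg value of limma over all 23525 probes tested. A gene is said to have fallen or risen where its adjusted p was under 0.05.

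Between 18998 and 20248 probes were detected per array (detection p under 0.05), and 47 of the 51 members were detected on every array. Mean raw signal per array ran from 312.5 to 557.2, the highest being SNU-5 control replicate 1. In log2 signals the SNU-5 controls were the least alike, with a correlation of 0.952 between replicates 1 and 3. No pair of arrays in the other 3 groups correlated below 0.980. The lowest correlation of SNU-5 control replicate 2 was 0.966, so these lowest values do not single out replicate 1. Calls of members under crizotinib that change without SNU-5 control replicate 1 are given both ways. Of 7 measured epithelial markers, 6 or 7 were detected on all arrays of each group. CDH1 was not detected on all untreated SNU-5 arrays, nor CLDN4 on all untreated MKN45 arrays. The log2 signal of CDH1 in SNU-5 minus that in MKN45 was -7.07 without and -6.70 with crizotinib. Of the other cell types checked, the leukocyte genes PTPRC and CD3E and the endothelial genes VWF, CDH5 and KDR were detected on no array, while CD14, ITGAM and LYZ were detected on all SNU-5 arrays and LYZ on all MKN45 arrays. In SNU-5 ITGAM (log2 change -1.09) and CD14 (mean log2 signal 10.41 in controls and 9.41 with crizotinib) fell, and their part in the results below was not tested. Of 7 fibroblast markers, at most 2 were detected on all 3 arrays of any group, with group means between 4.27 and 12.38, and in SNU-5 DCN (log2 change 2.62) and LUM rose and COL1A2 (-3.25) fell, whose part in the results below was not tested. Signals are relative to the whole of each array, so less RNA of a gene per cell and more RNA of other genes cannot be told apart.

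Nearly the whole set was lower with crizotinib in both lines. In SNU-5, 47 of 51 members fell (92.2%), against 17.2% of all genes tested, and in MKN45 42 of 51 fell (82.4%), against 17.9% of all genes. No member rose in either line by limma, where 18% of all genes rose in SNU-5 and 17.9% in MKN45, and 0 members were higher at an unadjusted p under 0.05 in either line. A total of 41 members fell in both lines (80.4%, against 10.1% of all genes), 6 fell in SNU-5 alone, 1 in MKN45 alone and 3 in neither. A call in a single line is not a test of a difference between lines, which is given further on. The median member stood at 39.5% of its control signal in SNU-5 (median log2 change -1.34) and at 51.5% in MKN45 (-0.96), whereas the median over all genes tested was 0.02 and 0.0042. At the stricter thresholds of the study's methods, an unadjusted p under 0.001 and an adjusted p under 0.05 with at least a 2-fold change, 39 members were lower in SNU-5 (76.5%, against 7.46% of all genes), 24 in MKN45 (47.1%, against 7.19%) and 22 in both (43.1%, against 3.72%). In the other direction these thresholds called 7.08% of all genes and 0 members in SNU-5, and 7.32% and 0 members in MKN45. With the log2 values deposited by the authors, the same thresholds called 33 members lower in SNU-5 and 19 in MKN45. With median scaling of the arrays in place of quantile normalization they called 43 and 30. Without SNU-5 control replicate 1, 49 members fell in SNU-5 (against 17.3% of all genes), where the median change was -1.39, and 44 fell in MKN45 (against 21.3%).

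The separation was visible on single arrays. Over the 51 members, the median log2 signal ran from 9.01 to 9.29 on the SNU-5 control arrays and from 7.49 to 7.67 with crizotinib. In MKN45 it ran from 8.85 to 9.09 and from 7.85 to 8.15. The treated arrays lay below the controls in both lines, with no overlap. For single members, every treated array lay below every control array for 48 of 51 in SNU-5 (22.9% of all genes) and for 48 of 51 in MKN45 (24.4%), and for 46 in both lines (90.2%, against 13.7% of all genes). Within groups the median SD over members was 0.244 in SNU-5 controls, 0.117 in SNU-5 with crizotinib, 0.163 in MKN45 controls and 0.142 in MKN45 with crizotinib.

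**Figure D1:**
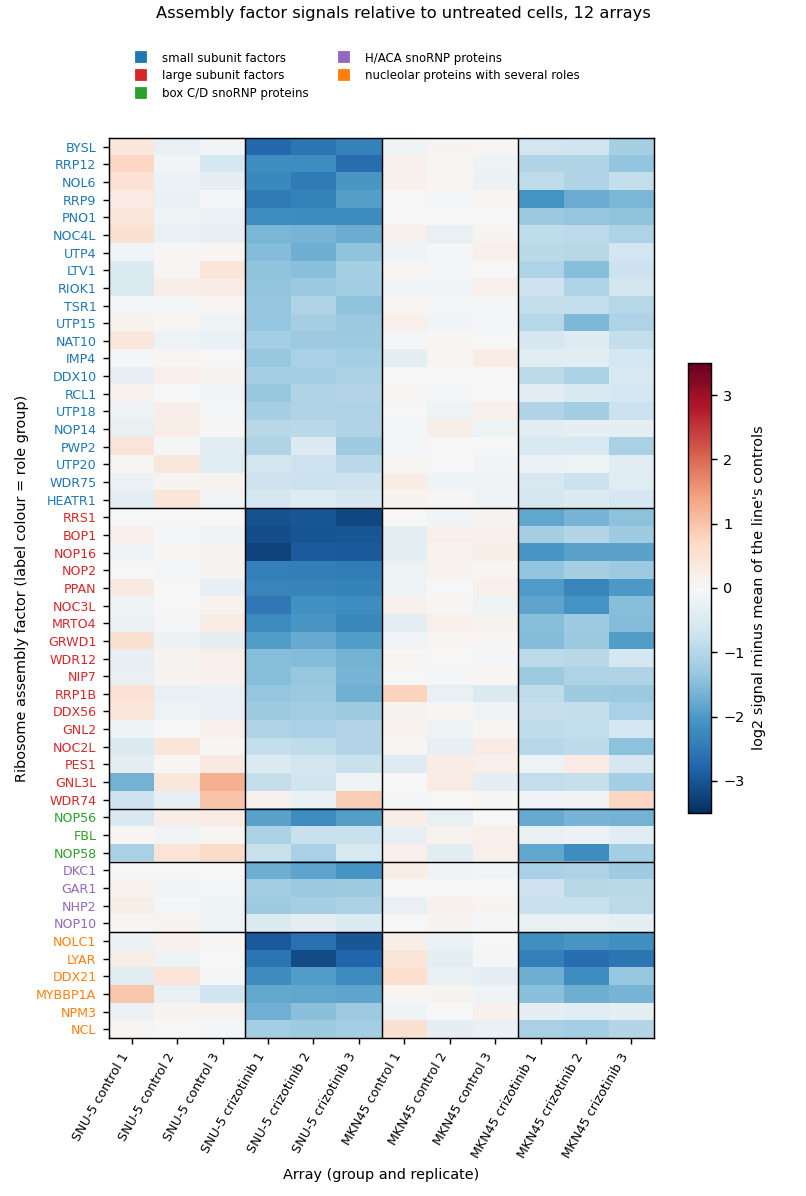
Colour gives the log2 signal of each of the 51 tested members (rows, grouped and label-coloured by role) on each of the 12 arrays (columns), minus the mean of the 3 controls of the same line. The treated columns are blue for nearly all rows, deeper in SNU-5 than in MKN45, the treated cells above the control mean are those of WDR74 and of PES1 on 1 MKN45 array, and FBL, NPM3, NOP10, NOP14 and UTP20 are pale in MKN45.

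Many of these genes carry the canonical E-box, the sequence CACGTG that MYC binds as a partner of MAX, close to where transcription starts. Promoter windows from RefSeq on GRCh38.p14, running from 250 bases before to 50 bases after an annotated start, were at hand for 49 of the 56 members, and none was given for BOP1, NOLC1, RRP12, RRS1, NOP58, DDX18 and RRP1B. CACGTG reads the same on both strands and was searched as those 6 letters. It stood in a window of 27 of 49 members (55.1%), against 12.4% of the 10113 tested genes with a window and 8.77% of the 27305 genes of the whole table. Among small subunit factors 14 of 21 had it (66.7%) and among large subunit factors 7 of 16 (43.8%). In the related lists described further on, 16 of 62 other assembly factors had it (25.8%) and 3 of 27 DNA replication genes (11.1%). The shares were 14.3% of exosome and nuclease genes, 7.14% of RNA polymerase I genes and 6.45% of cytosolic ribosomal proteins. Of 31 matches in the windows of members, 28 had their centre within 100 bases of the start. A match is a description of the sequence, and binding was not measured here. MYC itself fell in both lines (-4.05 in SNU-5, -4.58 in MKN45), and MXD4, a partner of MAX that represses E-box genes, rose by 2.76 and 2.72. Their part in the change of the members was not tested. The median change of the 24 tested members with the motif was -1.30 in SNU-5 and -0.87 in MKN45, and that of the 21 with a window but no motif was -1.27 and -0.96.

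The windows below belong to the 5 members that had the motif among the 8 smallest adjusted p-values of either line, and show where it lies relative to the start, which follows base 250. NOP2 is an rRNA cytosine methyltransferase of the large subunit, PNO1 an RNA-binding factor of the small subunit precursor, LYAR a nucleolar zinc finger protein, NOC3L a factor whose yeast counterpart moves large subunit precursors out of the nucleolus, and RRP9 a protein of the snoRNP that guides the early cuts of the small subunit rRNA. The window of NOP2 was chr12:6568242-6568541 on the minus strand. The window of PNO1 was chr2:68157638-68157937 on the plus strand. The window of LYAR was chr4:4289972-4290271 on the minus strand. The window of NOC3L was chr10:94362890-94363189 on the minus strand. The window of RRP9 was chr3:51941855-51942154 on the minus strand. Each is written 5′ to 3′ on the strand of its gene, with the motif in capitals.
NOP2: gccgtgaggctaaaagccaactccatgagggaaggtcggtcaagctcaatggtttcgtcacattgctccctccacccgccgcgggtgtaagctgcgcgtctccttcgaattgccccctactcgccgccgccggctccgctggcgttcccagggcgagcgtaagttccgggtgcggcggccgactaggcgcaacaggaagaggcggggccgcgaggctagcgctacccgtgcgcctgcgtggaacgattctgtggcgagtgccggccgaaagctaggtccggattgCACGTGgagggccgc
PNO1: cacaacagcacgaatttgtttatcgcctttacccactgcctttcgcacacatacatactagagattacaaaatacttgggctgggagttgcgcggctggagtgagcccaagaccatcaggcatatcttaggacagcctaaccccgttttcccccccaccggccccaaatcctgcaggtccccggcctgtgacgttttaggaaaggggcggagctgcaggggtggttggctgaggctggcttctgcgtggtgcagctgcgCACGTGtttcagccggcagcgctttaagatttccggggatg
LYAR: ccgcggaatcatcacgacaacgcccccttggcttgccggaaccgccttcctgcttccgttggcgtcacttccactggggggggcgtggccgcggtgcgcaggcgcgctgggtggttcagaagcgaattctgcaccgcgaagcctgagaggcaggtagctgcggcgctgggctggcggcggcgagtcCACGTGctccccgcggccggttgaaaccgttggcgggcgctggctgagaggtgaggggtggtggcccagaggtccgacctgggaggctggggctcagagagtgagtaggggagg
NOC3L: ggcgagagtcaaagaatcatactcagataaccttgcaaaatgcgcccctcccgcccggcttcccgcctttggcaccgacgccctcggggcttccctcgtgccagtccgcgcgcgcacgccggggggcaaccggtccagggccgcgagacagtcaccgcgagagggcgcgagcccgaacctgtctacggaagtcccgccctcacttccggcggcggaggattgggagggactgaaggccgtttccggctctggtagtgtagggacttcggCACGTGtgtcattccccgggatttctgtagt
RRP9: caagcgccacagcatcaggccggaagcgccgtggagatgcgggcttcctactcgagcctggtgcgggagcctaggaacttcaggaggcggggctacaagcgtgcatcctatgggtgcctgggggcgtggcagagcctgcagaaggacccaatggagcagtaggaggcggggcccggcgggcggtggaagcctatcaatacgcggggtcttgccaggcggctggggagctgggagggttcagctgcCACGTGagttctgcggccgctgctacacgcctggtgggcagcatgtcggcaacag
From the start site to the centre of the motif the distance was 38 bases in NOP2, 12 in PNO1 and 22 in NOC3L, all downstream, and -2 in RRP9 and -61 in LYAR, upstream.

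**Figure D2:**
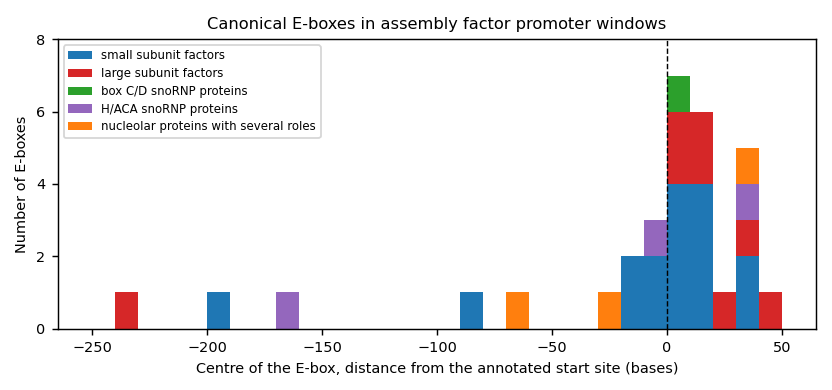
Bars count CACGTG matches in the promoter windows of the members (vertical axis, number of matches) by the distance of their centre from the annotated start site in bases (horizontal axis), stacked by role. Of 31 matches 28 lie within 100 bases of the start, and they range from -234 to 45.

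Factors of the large subunit held the deepest falls in SNU-5. Of 17 tested, 14 fell in each line, and their median changes were -1.55 in SNU-5 and -1.14 in MKN45. RRS1, which helps to bring the small rRNA of the large subunit into the growing particle, gave log2 signals of 9.06, 9.03 and 9.03 in the SNU-5 controls and 5.99, 6.04 and 5.86 with crizotinib. In MKN45 it gave 8.17, 8.05 and 8.24 in the controls and 6.33, 6.54 and 6.73 with crizotinib. The groups did not overlap in either line, and the change was -3.08 (SE 0.14, adjusted p = 2.9e-08) in SNU-5 and -1.62 (SE 0.14, adjusted p = 2.3e-06) in MKN45. SNU-5 cells kept 11.9% of their control signal and MKN45 cells 32.6%.

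BOP1, PES1 and WDR12 form the PeBoW complex, which processes the precursor of the large subunit rRNA. BOP1 gave 12.35, 12.14 and 12.04 in the SNU-5 controls and 9.07, 9.14 and 9.18 with crizotinib, which made a change of -3.05 (SE 0.16, adjusted p = 4.7e-08). Its MKN45 signals were 11.14, 11.63 and 11.60 in the controls and 10.29, 10.44 and 10.22 with crizotinib, with a change of -1.14 (SE 0.16, adjusted p = 1.2e-04). Treated and control arrays were apart in both lines, and in SNU-5 BOP1 was left at 12.1% of control. WDR12 also fell in both, with changes of -1.55 and -0.84. PES1 did not pass the test in either line. Its signals were 8.64, 9.01 and 9.29 in the SNU-5 controls and 8.50, 8.33 and 8.20 with crizotinib, and 7.99, 8.70 and 8.60 in the MKN45 controls and 8.25, 8.71 and 7.85 with crizotinib, so that the treated and control arrays of MKN45 overlapped. The change was -0.64 (SE 0.25, adjusted p = 0.07) in SNU-5 and -0.16 (SE 0.25, adjusted p = 0.71) in MKN45. The SNU-5 change of PES1 passed at -0.81 without SNU-5 control replicate 1 (adjusted p = 0.024), at -1.02 under median scaling (adjusted p = 0.0043) and at -0.64 without MKN45 control replicate 1 (adjusted p = 0.0499).

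NOP16, a nucleolar factor of large subunit maturation, gave 10.12, 10.26 and 10.31 in the SNU-5 controls and 7.00, 7.31 and 7.29 with crizotinib. In MKN45 its signals were 8.94, 9.39 and 9.48 in the controls and 7.25, 7.39 and 7.40 with crizotinib. No treated array reached a control array, and the changes were -3.03 (SE 0.17, adjusted p = 5.8e-08) and -1.92 (SE 0.17, adjusted p = 2.0e-06). NOP2, the methyltransferase whose window is printed above, gave 10.85, 10.82 and 10.96 in the SNU-5 controls and 8.49, 8.45 and 8.42 with crizotinib. In MKN45 it gave 11.57, 11.87 and 11.82 in the controls and 10.36, 10.58 and 10.48 with crizotinib. Here too the groups were apart, with changes of -2.42 (SE 0.14, adjusted p = 6.7e-08) and -1.28 (SE 0.14, adjusted p = 1.3e-05). PPAN, a factor of large subunit precursor processing that shares exons with the readthrough gene PPAN-P2RY11, gave 7.62, 7.29 and 7.02 in the SNU-5 controls and 5.01, 4.98 and 4.96 with crizotinib. The MKN45 arrays gave 7.15, 7.31 and 7.50 in the controls and 5.33, 5.02 and 5.31 with crizotinib. Its arrays were apart in both lines, with changes of -2.32 (SE 0.17, adjusted p = 6.0e-07) and -2.10 (SE 0.17, adjusted p = 1.2e-06). The treated signals of PPAN were near the lower end of the scale, where the size of a fold depends on the background correction and its offset of 16. Without background correction the median fall of the members was smaller in both lines.

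NOC3L gave 7.87, 8.02 and 8.14 in the SNU-5 controls and 5.52, 5.88 and 5.83 with crizotinib. The other line gave 8.67, 8.55 and 8.34 in the MKN45 controls and 6.68, 6.42 and 7.04 with crizotinib. Its arrays did not overlap between treated and control, and the changes were -2.27 (SE 0.18, adjusted p = 1.1e-06) and -1.81 (SE 0.18, adjusted p = 6.8e-06). Among the other large subunit factors, MRTO4, which holds the place of a stalk protein on the precursor, changed by -2.18 in SNU-5 and -1.43 in MKN45. GRWD1, whose yeast counterpart escorts a ribosomal protein, changed by -1.90 and -1.59. NIP7 changed by -1.48 and -1.14, RRP1B by -1.44 and -1.14, and the helicase DDX56 by -1.23 and -0.92. The GTPase GNL2 changed by -1.09 and -0.79, and NOC2L, whose yeast counterpart partners that of NOC3L, by -0.92 and -1.11. All 7 of these passed the test in both lines.

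GNL3L and WDR74 were the remaining large subunit factors that passed in neither line. GNL3L, a nucleolar GTPase, gave 6.31, 8.37 and 9.22 in the SNU-5 controls and 7.14, 7.26 and 7.84 with crizotinib, and its 3 SNU-5 controls spread widely, replicate 1 being the lowest. In MKN45 it gave 9.38, 9.64 and 9.03 in the controls and 8.48, 8.53 and 8.17 with crizotinib, where the groups were apart. The changes were -0.55 (SE 0.52, adjusted p = 0.49) and -0.96 (SE 0.52, adjusted p = 0.2). Without SNU-5 control replicate 1 GNL3L fell in both lines, with changes of -1.38 in SNU-5 (adjusted p = 0.0013) and -0.96 in MKN45 (adjusted p = 0.0061), and its dimmer probe fell in both lines with all arrays (-1.25, adjusted p = 0.0032, and -0.81, adjusted p = 0.035). WDR74, which works with the ATPase that strips factors from the large subunit precursor, was the only member with a positive change. It gave 5.79, 6.21 and 7.51 in the SNU-5 controls and 6.65, 6.27 and 7.37 with crizotinib, and 6.60, 6.64 and 6.67 in the MKN45 controls and 6.51, 6.53 and 7.37 with crizotinib. Treated and control arrays overlapped in both lines, and the changes were 0.26 (SE 0.39, adjusted p = 0.69) and 0.16 (SE 0.39, adjusted p = 0.82).

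**Figure D3:**
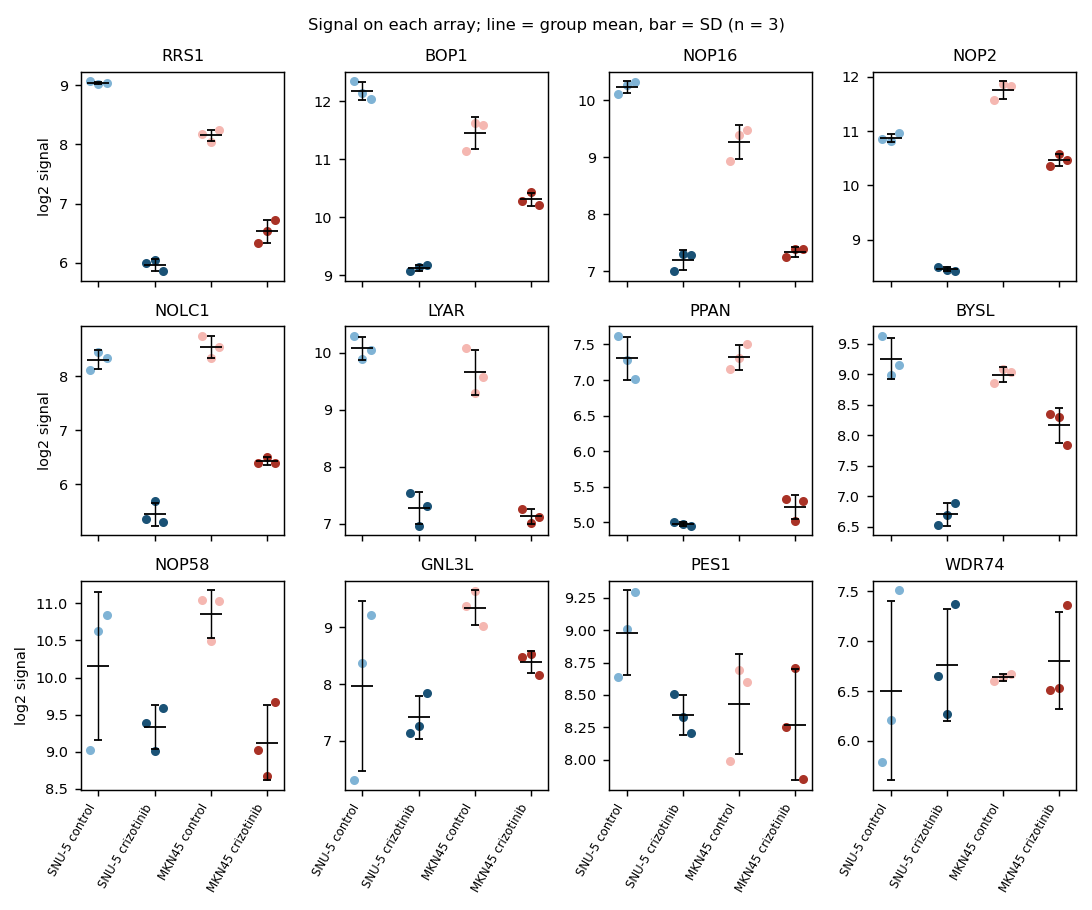
Each panel shows 1 member, with the log2 signal of each array (points) in the 4 groups along the horizontal axis, the group mean (line) and the SD of 3 arrays (bar), and with a vertical scale of its own. RRS1, BOP1, NOP16, NOP2, NOLC1, LYAR, PPAN and BYSL show treated arrays apart from controls in both lines, while NOP58, GNL3L, PES1 and WDR74 show overlap in at least 1 line.

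All 21 tested factors of the small subunit fell in SNU-5 (median -1.27) and 18 fell in MKN45 (median -0.86). PNO1 gave 8.27, 7.73 and 7.67 in the SNU-5 controls and 5.72, 5.69 and 5.65 with crizotinib, and 8.54, 8.55 and 8.53 in the MKN45 controls and 7.25, 7.19 and 7.13 with crizotinib. The treated arrays lay far below the controls in both, and the changes were -2.20 (SE 0.16, adjusted p = 5.2e-07) and -1.35 (SE 0.16, adjusted p = 3.0e-05). RRP9 gave 7.64, 7.12 and 7.32 in the SNU-5 controls and 4.88, 5.00 and 5.44 with crizotinib, and 7.31, 7.25 and 7.37 in the MKN45 controls and 5.23, 5.56 and 5.72 with crizotinib. It was detected on 2 of the 3 treated SNU-5 arrays and on all others, and its changes were -2.25 (SE 0.19, adjusted p = 1.9e-06) and -1.81 (SE 0.19, adjusted p = 1.2e-05).

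BYSL, or bystin, which acts in late maturation of the small subunit, gave 9.63, 8.99 and 9.15 in the SNU-5 controls and 6.52, 6.70 and 6.90 with crizotinib. In MKN45 it gave 8.85, 9.09 and 9.03 in the controls and 8.35, 8.30 and 7.83 with crizotinib. The groups were apart in both lines, but the SNU-5 change of -2.55 (SE 0.20, adjusted p = 8.3e-07) stood against -0.83 (SE 0.20, adjusted p = 0.0054) in MKN45. RRP12, an export factor, changed by -2.34 in SNU-5 and -1.16 in MKN45, and NOL6, a processome subunit, by -2.25 and -0.93. The processome subunits UTP4 and UTP15 changed by -1.55 and -1.27 in SNU-5 and by -0.86 and -1.22 in MKN45, and UTP18 was left at 47% and 49.8% of control. Factors of the late, partly cytoplasmic steps fell as well, among them LTV1 (-1.34 and -1.11), the kinase RIOK1 (-1.31 and -0.81) and TSR1 (-1.27 and -0.90). So did NAT10, the enzyme that acetylates small subunit rRNA (-1.24 and -0.63), the helicase DDX10 (-1.15 and -0.86), NOC4L, a partner of NOP14 (-1.66 and -0.96), and RCL1, which in yeast acts in cutting the small subunit precursor (-1.14 and -0.51). Among those that fell in both lines, the smallest SNU-5 changes were those of PWP2 (-0.92 and -0.75), WDR75 (-0.73 and -0.58) and HEATR1 (-0.54 and -0.56), which are all processome subunits.

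IMP4, NOP14 and UTP20 fell in SNU-5 and did not pass in MKN45. IMP4, a partner of the processome snoRNP, changed by -1.22 (SE 0.17, adjusted p = 9.5e-05) and -0.45 (SE 0.17, adjusted p = 0.053). The MKN45 change of IMP4 lay close to the threshold and passed under 7 of 21 alternatives, among them the deposited values (-0.45, adjusted p = 0.031), median scaling (-0.88, adjusted p = 0.011) and the fit without SNU-5 control replicate 1 (-0.45, adjusted p = 0.043). NOP14, a processome subunit, changed by -0.98 (SE 0.16, adjusted p = 4.1e-04) and -0.33 (SE 0.16, adjusted p = 0.14). Its dimmer probe fell in both lines (-1.34, adjusted p = 8.8e-05, and -0.97, adjusted p = 0.0011), and the mean of its probes passed in MKN45 (-0.65, adjusted p = 0.0046). UTP20 was dim, being detected on 7 of 12 arrays and on none of the treated MKN45 arrays, and changed by -0.77 (SE 0.19, adjusted p = 0.0071) in SNU-5 and -0.26 (SE 0.19, adjusted p = 0.36) in MKN45.

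The snoRNP proteins fall into the box C/D and H/ACA families. Of the 3 proteins of box C/D snoRNPs, which methylate rRNA, the scaffold NOP56 changed by -1.99 (SE 0.21, adjusted p = 1.2e-05) in SNU-5 and -1.68 (SE 0.21, adjusted p = 5.2e-05) in MKN45. FBL, the fibrillarin methyltransferase itself, changed by -0.90 (SE 0.16, adjusted p = 8.7e-04) and -0.27 (SE 0.16, adjusted p = 0.25), and its treated and control arrays overlapped in MKN45. NOP58, the other scaffold, was the only member that fell in MKN45 alone. Its signals were 9.02, 10.62 and 10.84 in the SNU-5 controls and 9.39, 9.02 and 9.60 with crizotinib, and 11.05, 10.49 and 11.04 in the MKN45 controls and 9.03, 8.67 and 9.67 with crizotinib. SNU-5 control replicate 1 lay with the treated arrays, and the changes were -0.83 (SE 0.40, adjusted p = 0.15) and -1.73 (SE 0.40, adjusted p = 0.0046). Without that array NOP58 fell by 1.40 in SNU-5 (adjusted p = 0.0012).

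All 4 proteins of the H/ACA snoRNPs, which make pseudouridine, fell in SNU-5, and 3 fell in MKN45. DKC1, the pseudouridine synthase dyskerin, gave 11.41, 11.39 and 11.44 in the SNU-5 controls and 9.69, 9.58 and 9.34 with crizotinib, and 12.09, 11.75 and 11.78 in the MKN45 controls and 10.73, 10.79 and 10.63 with crizotinib. Its groups were apart, with changes of -1.87 (SE 0.15, adjusted p = 1.0e-06) and -1.16 (SE 0.15, adjusted p = 5.8e-05). The core proteins GAR1 and NHP2 fell as well. GAR1 changed by -1.26 and -0.87 and NHP2 by -1.17 and -0.83. NOP10, the smallest protein of the particle, changed by -0.44 (SE 0.14, adjusted p = 0.025) in SNU-5, which did not pass when any of several arrays was left out (without SNU-5 control replicate 1, -0.40, adjusted p = 0.058), and by -0.29 (SE 0.14, adjusted p = 0.13) in MKN45.

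Nucleolar proteins with several roles held the deepest fall of MKN45, that of LYAR. All 6 tested fell in SNU-5 (median -1.97) and 5 fell in MKN45 (median -1.66). LYAR gave 10.30, 9.89 and 10.06 in the SNU-5 controls and 7.53, 6.96 and 7.31 with crizotinib, and 10.08, 9.30 and 9.58 in the MKN45 controls and 7.26, 7.00 and 7.11 with crizotinib. It kept 14.2% of control in SNU-5 and 17.3% in MKN45, changes of -2.81 (SE 0.21, adjusted p = 6.5e-07) and -2.53 (SE 0.21, adjusted p = 1.4e-06). NOLC1, a chaperone of snoRNPs, gave 8.11, 8.45 and 8.34 in the SNU-5 controls and 5.37, 5.70 and 5.30 with crizotinib, and 8.74, 8.33 and 8.53 in the MKN45 controls and 6.39, 6.51 and 6.39 with crizotinib. No array of a treated group reached its controls, and the changes were -2.85 (SE 0.16, adjusted p = 7.5e-08) and -2.10 (SE 0.16, adjusted p = 7.7e-07). DDX21, an RNA helicase, changed by -2.12 in SNU-5 and -1.73 in MKN45, and nucleolin (NCL), an abundant RNA-binding protein of the nucleolus, by -1.21 and -1.11.

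MYBBP1A, a nucleolar protein that binds MYB, was not well above background on any treated SNU-5 array (group means 6.22 in controls and 4.40 with crizotinib), so its fall there is given as a bound, at least 2.51-fold lower, taken against the dimmest signal among detected probes, array by array. The adjusted p of 5.1e-04 in limma belongs to the measured SNU-5 change and does not test this bound. In MKN45 it fell too, with a measured change of -1.60, but it was detected on only 1 of 3 treated arrays and its treated mean of 4.81 also lay near background. NPM3, a histone chaperone of the nucleoplasmin family, gave 10.97, 11.26 and 11.30 in the SNU-5 controls and 9.51, 9.73 and 9.89 with crizotinib, and 10.92, 11.09 and 11.23 in the MKN45 controls and 10.78, 10.71 and 10.75 with crizotinib. It fell in SNU-5, with a change of -1.47 (SE 0.15, adjusted p = 1.1e-05), and did not pass in MKN45, with -0.33 (SE 0.15, adjusted p = 0.13).

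The next question was whether the 2 lines responded to the same extent, tested as the change in SNU-5 minus the change in MKN45. The point estimate was more negative in SNU-5 for 46 of 51 members and in MKN45 for 5, with a median difference of -0.39 on the log2 scale. The difference itself passed the test for 9 members (17.6%, against 6.14% of all genes), all with the deeper fall in SNU-5. In the opposite direction 5.82% of all genes and 0 members passed by limma, nor did any member at an unadjusted p under 0.05. BOP1 had the smallest adjusted p, with a difference of -1.90 (SE 0.23, adjusted p = 1.4e-04). RRS1 differed by -1.46 (SE 0.20, adjusted p = 4.7e-04), BYSL by -1.72 (SE 0.28, adjusted p = 0.0015) and NOP2 by -1.14 (SE 0.19, adjusted p = 0.0021). At the thresholds of the methods 7 members had the deeper fall in SNU-5 (against 3.43% of all genes) and 0 in MKN45 (against 3.32%). The other 5 of the 9 were NPM3 (-1.13), NOP16 (-1.11), NOL6 (-1.33), PNO1 (-0.85) and DKC1 (-0.72). PNO1 (adjusted p = 0.030) and DKC1 (adjusted p = 0.048) were close to the threshold. The difference of PNO1 did not pass under 11 of 20 alternatives and that of DKC1 under 14 of 20. The dimmer probes of NOP16 (-1.01, adjusted p = 0.064) and NOL6 (-0.24, adjusted p = 0.62) did not pass, nor did the dimmest of NOP2 (0.62, adjusted p = 0.33). With median scaling of the arrays in place of quantile normalization, 4 of the 9 differences passed, those of BOP1, RRS1, NPM3 and NOP16. Without SNU-5 control replicate 1, 13 members had the deeper fall in SNU-5, where 6.61% of all genes had a more negative change. The calls added were UTP4, NOP14, WDR12, MRTO4 and NOLC1 while DKC1 was lost.

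**Figure D4:**
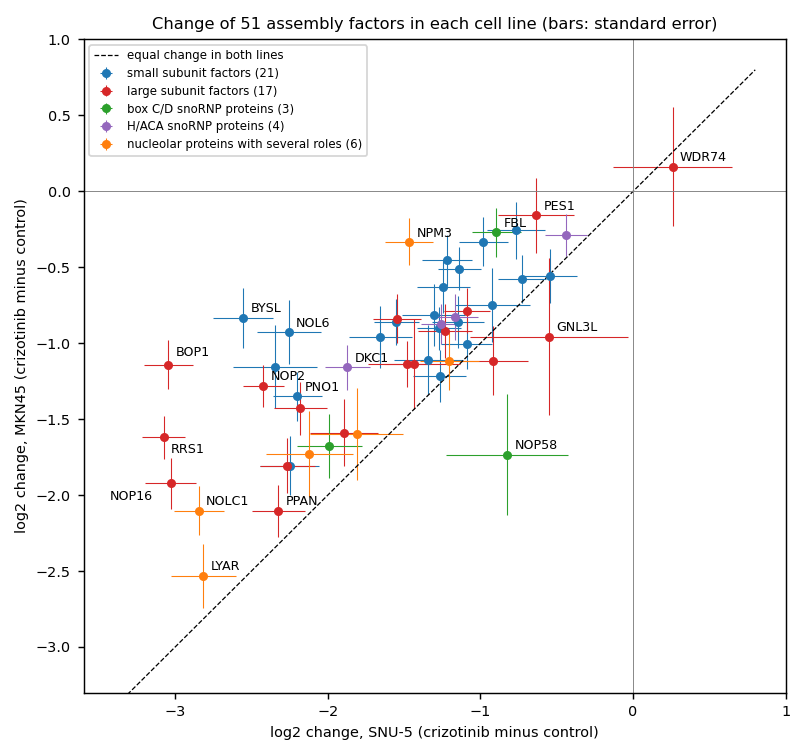
Each point is 1 of 51 members, placed by its log2 change with crizotinib in SNU-5 (horizontal axis) and MKN45 (vertical axis), with standard errors as bars and colour for role. Most points, 46 of 51, lie above the dashed line of equal change, where the fall in SNU-5 is deeper, and BOP1, RRS1 and BYSL lie farthest from it.

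Across the 51 members, the changes in the 2 lines ranked alike (Pearson r 0.75, Spearman rho 0.73). These are descriptions over genes measured on the same 12 arrays, and genes are not independent replicates. LYAR, NOLC1, NOP16, PPAN and RRS1 were among the 8 smallest adjusted p-values of both lines, together with NOP2.

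Before treatment, members differed between the lines in both directions, in shares near those of all genes at adjusted p under 0.05. Untreated SNU-5 was lower than untreated MKN45 for 15 members (29.4%, against 22.5% of all genes) and higher for 10 (19.6%, against 22.7%), and the median difference was -0.12. At the thresholds of the methods 2 were lower (3.92%, against 10.7% of all genes) and 2 higher (3.92%, against 10.9%), which are smaller shares than those of all genes. NOC4L (1.41), UTP18 (1.33) and NHP2 (0.97) were the members highest in SNU-5 relative to MKN45. GNL3L (-1.38), LTV1 (-1.31) and RIOK1 (-1.28) were the lowest. The dimmer tested probes of GNL3L (0.06, adjusted p = 0.89) and RIOK1 (-0.77, adjusted p = 0.067) did not pass. Those of NOC4L gave 0.91 (adjusted p = 0.032) and 0.01 (adjusted p = 0.97), and those of NHP2 all passed. The difference of GNL3L passed under only 8 of 20 alternatives and not without SNU-5 control replicate 1 (-0.56, adjusted p = 0.12). Without that array MRTO4 and NOC3L were also lost, and MYBBP1A and RRP1B (lower) and NOP56 and PES1 (higher) were added. This gave 14 lower (against 23.4% of all genes) and 12 higher (against 2916 of 12760 genes). BOP1 and RRS1, which fell further in SNU-5, started higher there, by 0.72 (adjusted p = 0.0028) and 0.89 (adjusted p = 2.1e-04), though under median scaling the difference of BOP1 did not pass (0.60, adjusted p = 0.078). NOP2 started lower in SNU-5 (-0.88, adjusted p = 1.7e-04), and BYSL did not pass (0.27, adjusted p = 0.32).

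Related gene lists moved by different amounts under crizotinib. Of 74 other assembly factors tested, 39 fell and 1 rose in SNU-5 (median -0.61), and 37 fell and 2 rose in MKN45 (median -0.60), with MAK16, a large subunit factor, at -2.08 and -1.85. Among 14 genes of the exosome and other rRNA nucleases, which trim the precursors, 8 fell in each line and 1 rose in SNU-5 (medians -1.01 and -0.72). The exosome subunits EXOSC5 and EXOSC4 changed by -2.31 and -1.68 in SNU-5 and by -0.99 and -0.87 in MKN45. Of 16 genes of RNA polymerase I, which transcribes the rRNA precursor, 6 fell and 1 rose in SNU-5 (median -0.34), and 9 fell and 2 rose in MKN45 (median -0.65). POLR1G, a subunit of the enzyme, fell in SNU-5 and in MKN45 (-1.54), while TAF1D, a subunit of its promoter factor, changed by 0.42 (adjusted p = 0.17) and rose by 1.56 in MKN45.

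Few genes of the ribosomal proteins themselves changed. Of 66 cytosolic ribosomal protein genes tested, 4 fell and 6 rose in SNU-5 (median 0.06), and 3 fell and 7 rose in MKN45 (median 0.13), although under median scaling 1 rose in SNU-5, where the median was -0.20 and all genes shifted by -0.12, and 3 rose in MKN45, and with the deposited values 14 rose in MKN45. Most genes of DNA replication, which mark proliferating cells, also fell, 26 of 30 in SNU-5 (median -1.72) and 25 of 30 in MKN45 (median -1.59), and their part in the change of the members was not tested. Of 10 common housekeeping genes, 4 fell and 1 rose in SNU-5 (median -0.38) and 6 fell in MKN45 (median -0.56), among them ACTB (-1.23 and -1.24). These lists are described by counts and medians, and their differences from the assembly factors were not tested.

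**Figure D5:**
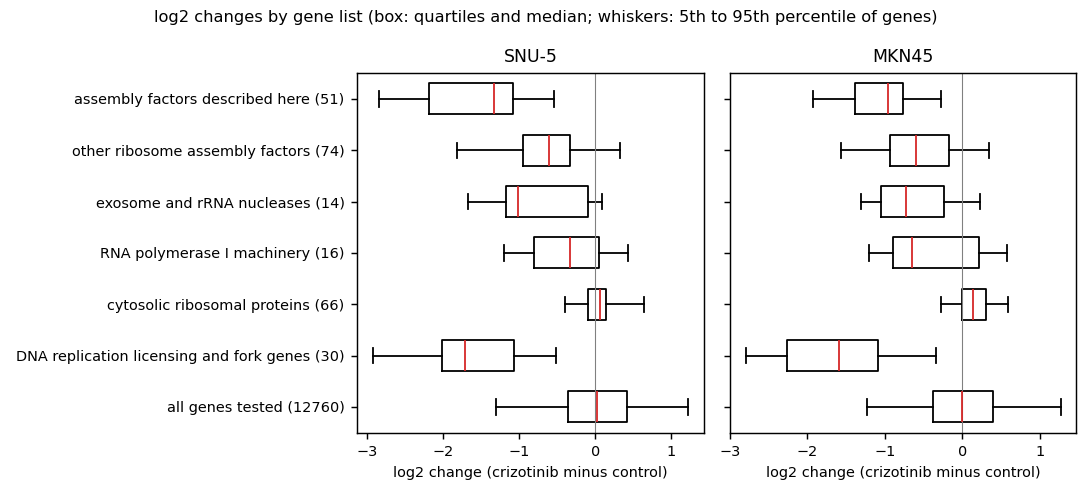
Boxes show the quartiles and median of log2 changes with crizotinib (horizontal axis) for each gene list (rows, number of genes tested in brackets) in SNU-5 (left) and MKN45 (right), with whiskers that leave out the outer 5% of genes at each end. The medians of the 51 members are -1.34 and -0.96, those of 66 cytosolic ribosomal proteins 0.06 and 0.13, and those of all 12760 genes 0.02 and 0.0042.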

How the data were processed

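Per the labels, total RNA of 12 samples was amplified, biotinylated and hybridised to 1 array each. The authors deposited the probe signal intensities, not normalized, each with a detection p-value, and log2 values they had quantile normalized with limma. Recomputing that step from the signals gave values within 0.0503 of the deposited log2 values. The scanner software is not given in the sources used here, and 0 per-sample columns were left unused. Groups came from the sample labels. The signals were corrected and quantile normalized with neqc of limma 3.58.1 in R 4.3.3, which reads the background from the detection p-values and adds an offset of 16. Of 47323 probes, 23525 that were detected (p under 0.05) on 3 or more arrays were tested in 1 limma fit of 4 group means with 8 residual degrees of freedom. Probes were named through the platform annotation (30113 with 1 symbol, 8 with several and 17202 with none there), and each gene was counted by its brightest tested probe.

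The members and all gene lists were chosen with earlier results of these data known, so the counts are descriptions beside the share of all genes called. The lists hold 5 role groups of members, 75 other assembly factors, 16 exosome and nuclease genes, 16 RNA polymerase I genes, 77 cytosolic ribosomal proteins, 30 replication genes, 12 housekeeping genes and cell type markers. Full values are given for the 8 members with the smallest adjusted p in each line and the 4 with the smallest for the line difference. Others are named within their role group, and the 3 largest differences between untreated lines in each direction are named. The values of PES1, GNL3L, WDR74, NOP58, NPM3, FBL and DKC1 were given after they had been seen. The fit was also run on simulated data with known changes and independent noise on each array. Such data cannot show how technical replicates would affect the p-values. Alternatives were no background correction, the deposited values, median scaling, no filter or a stricter filter on dim probes (detection p under 0.01 on at least 6 arrays), another probe or the mean of a gene's probes, a separate fit per line, a replicate block, the methods thresholds (p under 0.001, adjusted p under 0.05, 2-fold) and leaving out each array. Precision is limited by how many arrays there were.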

Additional observations from a re-analysis of the deposited data

Results flagged for a closer look

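The fall with crizotinib differed in size between SNU-5 and MKN45 for 7 of the 9 members that passed the test of the difference, when at least a 2-fold difference and an unadjusted p under 0.001 were also asked for. On the log2 scale, the change in SNU-5 minus the change in MKN45 was -1.90 for BOP1 (adjusted p = 1.4e-04), -1.46 for RRS1 (adjusted p = 4.7e-04), -1.72 for BYSL (adjusted p = 0.0015) and -1.14 for NOP2 (adjusted p = 0.0021). It was -1.13 for NPM3 (adjusted p = 0.0047), -1.11 for NOP16 (adjusted p = 0.009) and -1.33 for NOL6 (adjusted p = 0.012). Each of the 7 had the deeper fall in SNU-5. At these thresholds 3.43% of all genes had a more negative and 3.32% a more positive change in SNU-5, and 0 members had a more positive one. BYSL, NOP2 and NOL6 did not pass under median scaling. The dimmer probes of NOP16 (-1.01, adjusted p = 0.064) and NOL6 (-0.24, adjusted p = 0.62) did not pass. Of the dimmer NOP2 probes, those at -1.31 (adjusted p = 0.0045) and -0.81 (adjusted p = 0.036) passed, and that at 0.62 (adjusted p = 0.33) did not. At these thresholds 4 members had the deeper fall in SNU-5 with the mean of a gene's probes, and 3 under median scaling. Line and medium cannot be told apart in this difference.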

How the results depend on the processing

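The median fall of the members in each line kept its direction under every alternative run, and 44 of 47 members in SNU-5 (not HEATR1, NOP10 and PWP2) and 36 of 42 in MKN45 (not HEATR1, NAT10, NOC4L, PWP2, RRP1B and WDR75) passed under all of them other than the methods thresholds. UTP20, counted among the 44, was not tested under the stricter filter on dim probes and passed under its other alternatives. In SNU-5 HEATR1 was lost without control replicate 2 or any treated replicate, NOP10 without control replicates 1 or 2 or treated replicates 1 or 3, both in a separate fit per line, and PWP2 without treated replicate 3. In MKN45 HEATR1 was lost without control replicates 1 or 2 or any treated replicate, PWP2 without any control or treated replicate 3, WDR75 without control replicate 1 or treated replicate 2, and NAT10 without treated replicate 3, while NOC4L, RRP1B and PWP2 were lost under median scaling, and PWP2 also with the deposited values and with no filter. Median scaling added IMP4, NOP10 and NPM3 in MKN45 and NOP58 and PES1 in SNU-5. With the methods thresholds again set aside, 4 of 9 passed under all for the line difference (not BYSL, DKC1, NOL6, NOP2 and PNO1), and for the untreated lines 13 of 25. The methods thresholds left 39 members lower in SNU-5 and 24 in MKN45. These counts were 33 and 19 with the deposited values, 34 and 19 without background correction, and 43 and 30 under median scaling. Median scaling left 4 members with a more negative change in SNU-5 (against 2.55% of all genes) and 9 lower in untreated SNU-5 (against 19.6%). Median scaling also left 1 member higher in treated SNU-5 than in treated MKN45, against 2045 of 12760 genes. It moved the median of all genes by about -0.12 in both lines and the share of called genes that were lower from 48.8% to 70% in SNU-5 and from 50% to 67.5% in MKN45, with member medians of -1.69 and -1.28. Without background correction the SNU-5 median was -1.20, as with the deposited values (-1.20). A separate fit per line gave 45 members lower in SNU-5 (against 14.9% of all genes) and 43 in MKN45 (against 18.5%). The labels do not say whether replicate numbers pair the samples. Same-numbered arrays deviated together with correlations from 0.11 to 0.33 in MKN45 and from 0.01 to 0.45 in SNU-5, and in neither line did every array correlate best with its own number. With the replicate number as a block, 47 members fell in SNU-5 (against 18% of all genes) and 42 in MKN45 (against 18.4%). The fall was deeper in SNU-5 for 9 (against 6.32%). In untreated SNU-5 8 were lower (against 18.2% of all genes) and 8 higher (against 2446 of 12760 genes). In treated SNU-5 23 were lower (against 18.2%) and 3 higher (against 2445 of 12760 genes). Leaving out each array in turn gave 44 to 49 members lower in SNU-5 and 39 to 44 in MKN45, and 7 to 13 with a deeper fall in SNU-5, the 13 without SNU-5 control replicate 1. It gave 8 to 12 higher and 10 to 15 lower in untreated SNU-5, with 10 lower without SNU-5 control replicate 2, and 22 to 28 lower and 5 higher in treated SNU-5. Over all genes the share lower ran from 13.8% to 17.4% in SNU-5, from 14.6% to 21.3% in MKN45 and from 4.18% to 6.77% for the line difference. That share ran from 19.8% to 23.4% for untreated and from 21.2% to 26.8% for treated SNU-5. Member medians ran from -1.39 to -1.31 in SNU-5, from -1.06 to -0.92 in MKN45, from -0.47 to -0.36 for the line difference, from -0.15 to -0.02 between untreated lines and from -0.61 to -0.47 between treated lines. MYBBP1A, UTP20, PWP2 and RRP9 were not detected on every array, so their folds are limited by background, while GNL3L, NOP58 and WDR74, detected on all, had the largest standard errors (0.52, 0.40 and 0.39).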

Other observations

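A comparison of the lines under crizotinib, added after the values had been seen, showed the set lower in SNU-5. Treated SNU-5 was lower than treated MKN45 for 26 members (51%, against 24.3% of all genes) and higher for 5 (9.8%, against 24.1%), with a median difference of -0.52. NOP2 (-2.02), RIOK1 (-1.77) and RCL1 (-1.58) were the lowest in SNU-5 relative to MKN45, and UTP18 (1.24) and NOC4L (0.71) the highest. The dimmer tested probes of NOC4L gave 0.22 (adjusted p = 0.63) and -0.31 (adjusted p = 0.12) and did not pass. Dimmer probes of NOP2 gave -2.09, -1.57 and -0.11, the last of which did not pass (adjusted p = 0.77), and that of RIOK1 passed (-1.02, adjusted p = 0.017). This comparison shares its arrays with the comparisons in the report.

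For 14 members more than 1 probe was tested. Every tested probe fell in SNU-5 for 9 of them and in MKN45 for 7, no probe rose in either line, and for NOP10 no probe passed in MKN45. The members whose probes did not all fall in SNU-5 were GAR1, GNL3L, NOC4L, NOL6 and NOP2, and in MKN45 they were GAR1, GNL3L, NOC4L, NOL6, NOP10, NOP14 and RIOK1.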
